A study of Homo sapiens with 4 samples.

Results

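Skipped exons that lie one after the other between the same pair of flanking splice sites were examined. A set was defined as 2 or more skipped-exon events with the same upstream 5′ splice site and the same downstream 3′ splice site but skipped exons that do not overlap. Each event needed at least 10 informative reads in each group's file, where an informative read fits only the isoform with the exon (inclusion-only) or only the isoform without it (exclusion-only). Of 44910 events in the files, 24492 reached this minimum, and 2831 of them fell into 1160 sets in 894 genes, 862 of which are protein coding. With 1 event kept per exon and set, the sets held 2464 exons: 1045 sets had 2 exons, 92 had 3, 18 had 4, 4 had 5 and 1 had 6. These exons form 1304 pairs of neighbours, and each pair has an upstream and a downstream exon in the direction of transcription.

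Exons that share both flanks can be joined in several ways. The spliceosome can keep both exons, skip both, or keep one of them, and in mutually exclusive exons exactly one is kept, often giving alternative versions of the same stretch of protein. The U2 small nuclear ribonucleoprotein binds the branch point upstream of every 3′ splice site of a major-class intron, so it acts at each exon of a set and at the shared downstream flank. SNRPB2 encodes U2B″, a protein of this particle that binds U2 RNA.

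The measurements came from MDA-LM2 cells, which were derived from the breast cancer line MDA-MB-231 and colonise the lung. Per the labels, 2 libraries of total RNA were made from cells transfected with small interfering RNA against SNRPB2 (siSNRPB2) and 2 from cells given control RNA (siCtrl), all collected at 48 h. The labels report a knockdown of over 95% by quantitative PCR for 2 selected siRNAs. The deposited files hold 1 inclusion level per event and group, ψ, with the authors' interval. It is the estimated fraction of transcripts that keep the exon between the flanks of that event. With 1 value per group, no difference given here has a replicate check and no test between groups was possible. An exon was called different where the authors' deposited table gave a Bayes factor (the evidence for a difference over that for none) of at least 10 and a ψ difference, siSNRPB2 minus siCtrl, of at least 0.1 in size.

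The siSNRPB2 file listed 42670 events with 93580246 reads, against 42159 events with 100579230 reads in the siCtrl file, and a read can count for several overlapping events. The exons in sets had a median of 79 informative reads in siSNRPB2 and 94 in siCtrl. No event lay in SNRPB2 itself, and the level of its RNA was not analysed here.

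The exons of 6 pairs are printed first because the results turn on them or because they show how alike 2 neighbouring exons can be. They are given 5′ to 3′ on the strand of the gene, from GENCODE release 29 transcripts on hg38. In RAB6A and ATE1 the exons of a pair have equal length, and capitals mark the positions at which the pair differs. RAB6A encodes a small GTPase of the Golgi and ATE1 the arginyltransferase that marks proteins for degradation.
RAB6A upstream exon: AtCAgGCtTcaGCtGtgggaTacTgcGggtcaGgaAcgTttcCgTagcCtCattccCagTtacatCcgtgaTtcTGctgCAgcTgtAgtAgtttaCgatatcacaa
RAB6A downstream exon: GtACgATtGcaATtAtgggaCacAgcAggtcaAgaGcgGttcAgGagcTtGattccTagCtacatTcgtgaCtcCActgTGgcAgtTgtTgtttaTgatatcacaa
ATE1 upstream exon: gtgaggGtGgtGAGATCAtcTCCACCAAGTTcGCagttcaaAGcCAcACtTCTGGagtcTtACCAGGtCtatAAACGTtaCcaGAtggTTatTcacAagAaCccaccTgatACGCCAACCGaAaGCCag
ATE1 downstream exon: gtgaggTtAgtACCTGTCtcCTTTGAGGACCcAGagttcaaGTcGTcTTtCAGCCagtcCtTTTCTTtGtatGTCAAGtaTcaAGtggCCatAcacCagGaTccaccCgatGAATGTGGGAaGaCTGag

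The RAB6A exons are 106 bases long and equal at 75 of these positions (70.8%). The ATE1 exons are 129 bases long and equal at 58 positions (45.0%). They lie on hg38 at chromosome 11, 73718785 to 73718890 and 73718613 to 73718718 (RAB6A, minus strand) and at chromosome 10, 121899866 to 121899994 and 121898841 to 121898969 (ATE1, minus strand).

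In the next 4 pairs capitals mark the first and last 3 bases of each exon, which meet the splice sites. These pairs are shown because the 2 exons were called in opposite directions. ABI1 encodes a subunit of the WAVE complex that drives actin branching, SLC50A1 a sugar transporter, BPTF the largest subunit of the chromatin remodeller NURF, and ZNF185 an actin-associated LIM-domain protein.
ABI1 upstream exon: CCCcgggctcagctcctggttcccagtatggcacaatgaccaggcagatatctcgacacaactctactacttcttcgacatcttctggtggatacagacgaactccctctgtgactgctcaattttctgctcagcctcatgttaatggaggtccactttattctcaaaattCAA
ABI1 downstream exon: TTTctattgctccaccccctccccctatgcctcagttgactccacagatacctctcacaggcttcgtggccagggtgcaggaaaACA
SLC50A1 upstream exon: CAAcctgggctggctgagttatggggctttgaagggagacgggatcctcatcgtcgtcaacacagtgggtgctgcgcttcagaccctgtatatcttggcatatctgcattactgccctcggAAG
SLC50A1 downstream exon: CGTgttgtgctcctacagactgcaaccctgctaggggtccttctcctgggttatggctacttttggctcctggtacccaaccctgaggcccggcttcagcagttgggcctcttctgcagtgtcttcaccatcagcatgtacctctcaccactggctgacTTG
BPTF upstream exon: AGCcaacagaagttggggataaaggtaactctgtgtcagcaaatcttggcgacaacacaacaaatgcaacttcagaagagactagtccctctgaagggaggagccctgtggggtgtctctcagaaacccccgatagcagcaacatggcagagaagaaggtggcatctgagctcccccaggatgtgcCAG
BPTF downstream exon: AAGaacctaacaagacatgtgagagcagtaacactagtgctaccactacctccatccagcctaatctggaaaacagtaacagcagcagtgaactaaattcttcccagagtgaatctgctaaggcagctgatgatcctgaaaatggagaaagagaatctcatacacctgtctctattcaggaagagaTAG
ZNF185 upstream exon: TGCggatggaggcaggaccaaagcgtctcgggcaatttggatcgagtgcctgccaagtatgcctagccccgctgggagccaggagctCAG
ZNF185 downstream exon: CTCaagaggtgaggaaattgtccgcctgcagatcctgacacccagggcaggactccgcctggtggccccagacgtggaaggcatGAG

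The ABI1 exons are 174 and 87 bases long and lie on chromosome 10, 26759062 to 26759235 and 26755655 to 26755741 (minus strand). Those of SLC50A1 are 124 and 162 bases long on chromosome 1, 155136828 to 155136951 and 155137561 to 155137722 (plus strand). Both BPTF exons are 189 bases long, on chromosome 17, 67875556 to 67875744 and 67886128 to 67886316 (plus strand). The ZNF185 exons are 90 and 87 bases long on chromosome X, 152922720 to 152922809 and 152928575 to 152928661 (plus strand). GENCODE places both exons of each of these 4 pairs together in at least 1 transcript.

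Exons in sets were less included than skipped exons in general. Their median ψ was 0.24 in siSNRPB2 and 0.225 in siCtrl, against 0.74 in siSNRPB2 and 0.75 in siCtrl over all 21474 exons with enough reads. Some exons count in more than 1 set. The 2229 distinct exons in sets had a median of 0.19 in siSNRPB2 and 0.18 in siCtrl. A ψ under 0.1 was given to 39.9% of exons in sets in siSNRPB2 and 40.3% in siCtrl, while 22.5% in siSNRPB2 and 24.1% in siCtrl were over 0.9. Many of these exons are thus listed but hardly used: 511 in siSNRPB2 and 503 in siCtrl had no inclusion-only read at all. Their median length was 118 bases, against 120 over all exons, and 38.9% of the lengths were multiples of 3, against 41.5%. In GENCODE, 1043 of the 2464 exons (42.3%) are coding throughout, 489 partly and 812 not at all, and 120 are not annotated.

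The exons that only just reached the read minimum resembled those that just missed it. The 128 exons with 10 to 12 informative reads in the shallower file had a median ψ of 0.07 in siSNRPB2 and 0.05 in siCtrl, and the 170 exons with 7 to 9 such reads had 0.07 in each group.

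Within a pair, neighbouring exons usually had similar ψ. The median gap between the 2 exons was 0.07 in siSNRPB2 and 0.06 in siCtrl, against 0.4 in each group over 9359 other pairs of neighbouring exons of a gene that do not share both flanks. Both exons were at or under 0.1 in 432 pairs in siSNRPB2 and 447 in siCtrl, and both were at or over 0.9 in 168 pairs in siSNRPB2 and 195 in siCtrl. A clear choice of one exon over the other, with one at or over 0.9 and the other at or under 0.1, was seen in 18 pairs in siSNRPB2 and 17 in siCtrl. Over the 9359 other pairs, both exons were at or under 0.1 in 544 in siSNRPB2 and 556 in siCtrl. Both were at or over 0.9 in 1552 in siSNRPB2 and 1633 in siCtrl. In 2043 pairs in siSNRPB2 and 2133 in siCtrl, 1 exon was at or over 0.9 and the other at or under 0.1. Since these pairs do not share both flanks, such a gap is not a choice between exons of a set. Pairs with both exons at or under 0.1 were thus more common in sets, and their gap is small by necessity. Among pairs sharing both flanks, the upstream exon had the higher ψ in 535 in siSNRPB2 and 557 in siCtrl. The downstream exon had it in 604 in siSNRPB2 and 574 in siCtrl.

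The similarity has a part that is built into the files. The junction that skips an exon joins the shared flanks, so it is the same junction for every exon of a set, and the exclusion-only reads were equal for both exons in all 1304 pairs in both files. The ψ values of a pair are therefore not independent. In 428 pairs (32.8%) no exclusion-only read was seen in either file, and ψ there rests on inclusion-only reads against reads that fit both isoforms. A transcript with both exons gives a junction between them that neither event contains. Of the reads assigned to exons in sets, 62.6% in siSNRPB2 and 60.7% in siCtrl fitted neither isoform, against 53.3% in siSNRPB2 and 51.4% in siCtrl over all exons.

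GENCODE separates the pairs by kind. Both exons occur together in a transcript in 633 pairs, and in 481 pairs they never do while each is joined directly to the shared flanks in some transcript (exclusive pairs). In 85 pairs the exons are annotated apart in other ways, and in 105 at least 1 exon is not annotated. The ψ values of the 2 exons summed to a median of 1.35 in siSNRPB2 and 1.35 in siCtrl in pairs found together, and to 0.08 in siSNRPB2 and 0.07 in siCtrl in exclusive pairs. Most exclusive pairs were thus 2 little-used alternatives: both exons were at or under 0.1 in 282 of 481 in siSNRPB2 and in 295 in siCtrl. The sum passed 1, which strict exclusion does not allow, in 42 exclusive pairs in siSNRPB2 and 44 in siCtrl.

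Few pairs look like duplicated exons. Over 1192 pairs with both sequences, the median identity after alignment was 37.1%, and it reached 60% in 12 exclusive pairs, 6 pairs found together and 2 annotated apart. The exons had the same length in 13 pairs. In IFI16, an innate immune sensor of DNA, the 2 exons of 168 bases are identical, so that reads within them cannot be told apart and their values are uncertain.

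By the rule on the Bayes factor and the ψ difference, 210 of the 2464 exons in sets (8.52%) were called lower in siSNRPB2 and 181 (7.35%) higher. Counted once each, the 2229 distinct exons in sets had 8.17% called lower and 7.67% higher. Over all 21474 exons, 7.72% were called lower and 7.49% higher, so the exons in sets were called about as often as any. The median ψ difference was 0 in both collections, and its median size was 0.03 in both. Exons at the upstream position of a pair were called lower 122 times and higher 93 times, and those at the downstream position 99 and 90 times.

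Genes known for exclusive or tandem exons were looked up by name. Of 99 such genes listed, 22 had a set, with 68 exons and 38 pairs, and in siSNRPB2 6 of the exons (8.82%) were called lower and 6 (8.82%) higher, near the 7.72% and 7.49% over all exons. Since 2 ABI1 exons count in 2 sets, 5 distinct exons were called in each direction. RAB6A, printed above for its alike exons, was not on that list. In RAB6A the upstream exon had ψ 0.53 in siSNRPB2 and 0.43 in siCtrl and the downstream exon 1.00 in siSNRPB2 and 0.99 in siCtrl, and neither file held exclusion-only reads. The upstream exon took 15.0% of the pair's inclusion-only reads in siSNRPB2 and 18.7% in siCtrl, so the downstream exon prevailed in both groups. RAB6A has near-identical copies elsewhere in the genome, and these values are uncertain for that reason. Neither RAB6A exon was called.

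Several other pairs of listed genes had similar observed values in the 2 groups. In H2AFY, which encodes the histone variant macroH2A1, the upstream exon of an exclusive pair had ψ 0.99 in each group and the downstream exon 0.23 in siSNRPB2 and 0.18 in siCtrl, with 872 and 114 inclusion-only reads in siSNRPB2 and 834 and 112 in siCtrl. In FYN, a Src-family kinase with exclusive exons next to its catalytic domain, ψ was 0.21 in each group upstream and 0.40 in siSNRPB2 and 0.49 in siCtrl downstream. In APP, the amyloid precursor protein, the upstream exon encodes the Kunitz protease inhibitor domain. Its ψ was 0.34 in siSNRPB2 and 0.37 in siCtrl, that of the downstream exon was 0.15 in siSNRPB2 and 0.17 in siCtrl, and the upstream exon took 86.7% of the pair's inclusion-only reads in each group. The upstream APP exon had 1958 inclusion-only reads in siSNRPB2 and 2361 in siCtrl, beside only 17 and 2 exclusion-only reads. The level of the APP ψ values is therefore uncertain. In MYL6, a myosin light chain, the downstream exon had ψ 1.00 and the abutting upstream exon 0.01 in each group. No intron separates these MYL6 exons. No exon of these 4 pairs was called.

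In FGFR1 the pair of exons encoding alternative ends of an immunoglobulin-like domain of the receptor behaved otherwise. The upstream exon had ψ 0.03 in siSNRPB2 and 0.04 in siCtrl, and the downstream exon 0.68 in siSNRPB2 and 0.86 in siCtrl, which was called lower. The share of the upstream exon among the pair's inclusion-only reads was 4.2% in each group. The level of the downstream exon thus stood lower at an equal choice between the exons (log2 ratio 0.02, 95% interval −3.78 to 2.59), an interval wide enough to allow large shifts either way. A second FGFR1 set, nearer the start of the gene, had its upstream exon called higher, with ψ 0.39 in siSNRPB2 and 0.21 in siCtrl and 309 inclusion-only reads in siSNRPB2 against 206 in siCtrl, beside a downstream exon at 0.00 in siSNRPB2 and 0.01 in siCtrl.

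Apart from ABI1, described below with the opposite calls, other listed genes had calls in both directions. In AKAP13, a scaffold protein that anchors kinases, the downstream exon had ψ 0.29 in siSNRPB2 and 0.06 in siCtrl and was called higher. In SEC31A, a coat protein of vesicles leaving the endoplasmic reticulum, it had 0.29 in siSNRPB2 and 0.53 in siCtrl and was called lower, and so was that of the transcription factor gene TCF12, with 0.31 in siSNRPB2 and 0.76 in siCtrl. The TCF12 exon had few inclusion-only reads, 14 in siSNRPB2 and 27 in siCtrl, and neither file held exclusion-only reads. Its pair is annotated as exclusive, with upstream ψ 0.92 in siSNRPB2 and 0.99 in siCtrl. The TCF12 values thus summed to more than 1, and their level is uncertain. In COL13A1, a transmembrane collagen, both exons of an exclusive pair were called higher, with 0.82 in siSNRPB2 and 0.33 in siCtrl upstream and 0.93 in siSNRPB2 and 0.29 in siCtrl downstream. The COL13A1 values rest on few reads, 15 and 50 inclusion-only reads in siSNRPB2, while siCtrl had 28 and 22.

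Both exons of a pair were called in the same direction in 45 of 1304 pairs (3.45%): lower in siSNRPB2 in 27 pairs of 24 genes and higher in 18 pairs of 18 genes. Among the 9359 neighbouring pairs without shared flanks 1.04% were called in 1 direction. Opposite calls were made in 10 pairs of 9 genes (0.767%), against 1.44% of the other pairs. In 294 pairs 1 exon was called, and in 955 none. Among pairs in which both differences reached 0.1 in size, called or not, 103 of 142 (72.5%) had the same sign, against 361 of 774 (46.6%) of the other pairs.

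**Figure D1:**
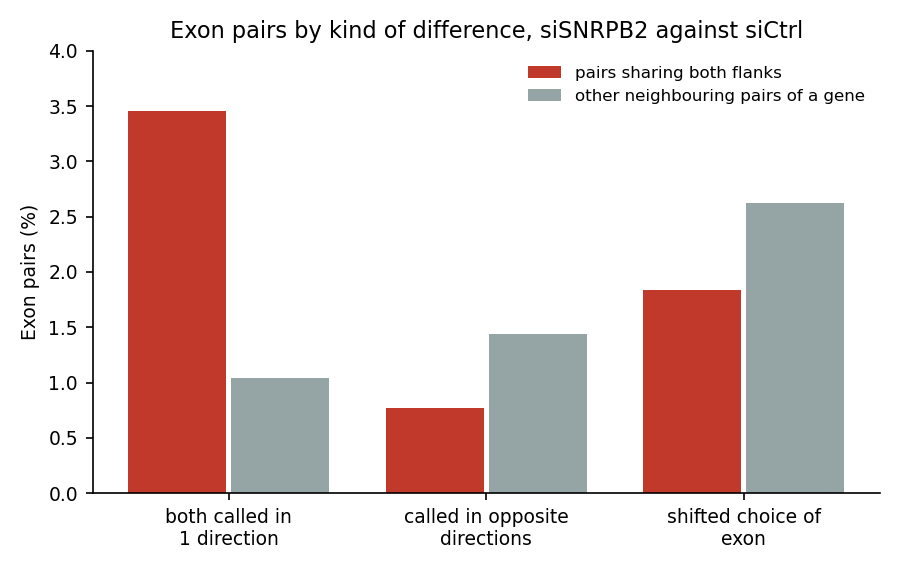
Share of exon pairs (%) called in 1 direction, called in opposite directions, or with a shifted choice of exon, for the 1304 pairs that share both flanks (red) and 9359 other neighbouring pairs (grey). Joint calls stand at 3.45% against 1.04%, opposite calls at 0.767% against 1.44% and shifts at 1.84% against 2.62%; these shares were not tested.

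The shared exclusion-only reads enter both ψ values of a pair. Their direction in jointly called pairs is therefore partly built into the calls and is no separate evidence. Exclusion-only reads were more numerous in siSNRPB2 in 20 of the 27 pairs called lower, fewer in 1 and equal in 6, and they were fewer in siSNRPB2 in 16 of the 18 pairs called higher and equal in 2. Where no exclusion-only read was seen in either file, 8 of 428 pairs (1.87%) were called jointly. With at least 1 such read in each file, the count was 27 of 760 (3.55%), and with such reads in 1 file only it was 10 of 116 (8.62%). Without exclusion-only reads, ψ rests on inclusion-only reads against reads that fit both isoforms. Those reads lie in the flanks, whose inner edges the 2 exons share, so the 428 pairs are not free of a built-in link. The part of the shared junction and flanks in the excess over other pairs was not tested further.

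By spacing and annotation the shares of joint calls lay close together. They made up 3.35% of the 209 pairs under 500 bases apart, 3.61% of the 610 pairs at 500 to 5000 bases and 3.30% of the 485 pairs farther apart. They made up 3.95% of pairs that GENCODE finds together and 2.91% of exclusive pairs. Opposite calls numbered 8 among pairs found together and 1 among exclusive pairs.

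**Figure D2:**
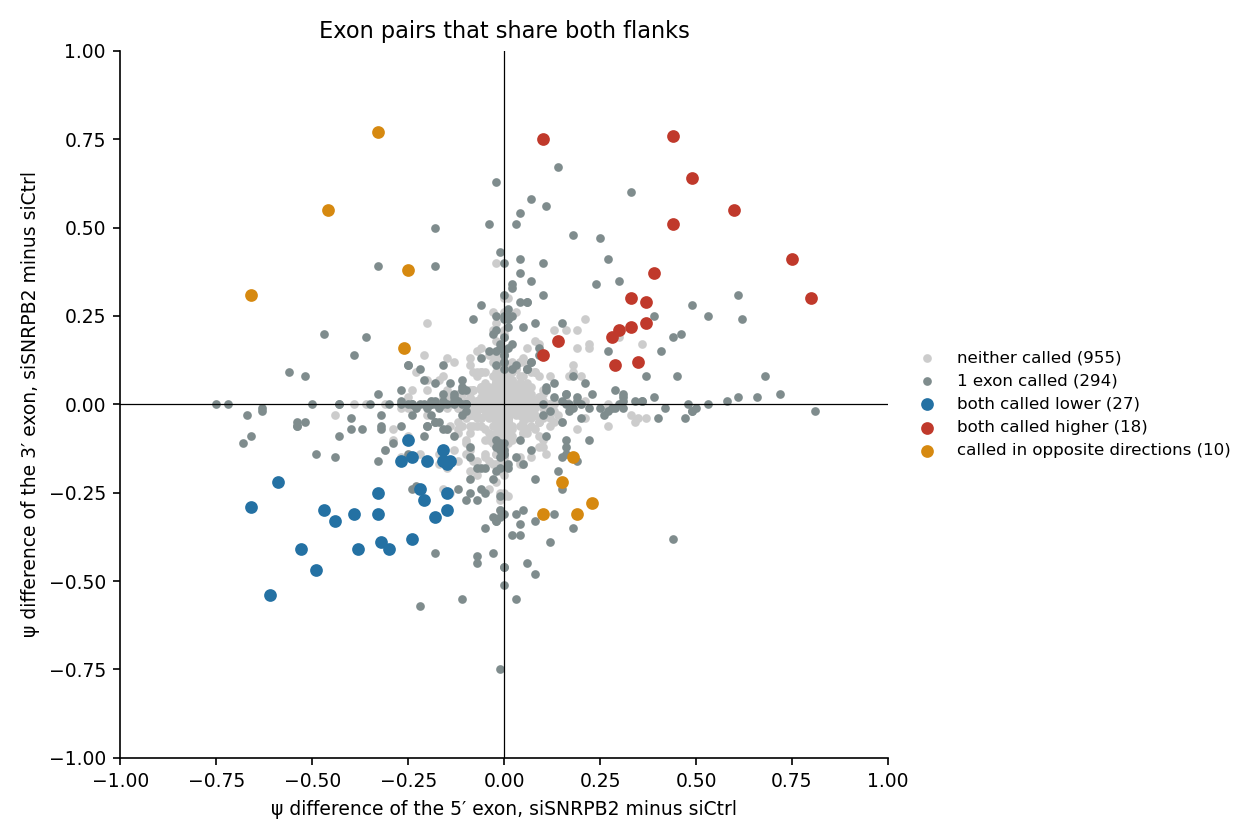
Each point is 1 of 1304 exon pairs, with the ψ difference (siSNRPB2 minus siCtrl) of the upstream (5′) exon on the x axis and of the downstream (3′) exon on the y axis; colours give the calls. Pairs called in the same direction (27 lower in blue, 18 higher in red) lie at the lower left and upper right, and the 10 pairs called in opposite directions (orange) at the upper left and lower right.

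Among pairs with both exons lower in siSNRPB2, MDM2, which encodes the ubiquitin ligase that degrades p53, had the largest joint difference. Its upstream exon of 75 bases had ψ 0.16 in siSNRPB2 and 0.77 in siCtrl, and its downstream exon of 134 bases 0.44 in siSNRPB2 and 0.98 in siCtrl. The inclusion-only reads were 23 upstream and 115 downstream in siSNRPB2, against 92 and 317 in siCtrl, and no exclusion-only read was seen in either file. Both exons thus lost inclusion-only reads without a read for the junction that skips them. The exons lie on chromosome 12, 68813554 to 68813628 and 68816812 to 68816945 (hg38), and occur together in annotated transcripts. In an MDM2 set with a farther downstream flank, the 75-base exon had ψ 0.08 in siSNRPB2 and 0.41 in siCtrl, also called lower. The inclusion-only reads of this exon were the same there, so its ψ depends on the flanks of the event.

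The coagulation inhibitor gene TFPI followed, with ψ 0.49 in siSNRPB2 and 0.98 in siCtrl upstream and 0.38 in siSNRPB2 and 0.85 in siCtrl downstream. Exclusion-only reads numbered 10 in siSNRPB2 and 0 in siCtrl. In TBC1D25, a regulator of Rab GTPases, ψ was 0.43 in siSNRPB2 and 0.96 in siCtrl upstream, and 0.50 in siSNRPB2 and 0.91 in siCtrl downstream. As in MDM2, the TBC1D25 pair had no exclusion-only read. NRG1, a ligand of ErbB receptors, had 0.51 in siSNRPB2 and 0.89 in siCtrl upstream and 0.35 in siSNRPB2 and 0.76 in siCtrl downstream, also without one.

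In EBPL and HDLBP, also called lower, reads for the skipping junction were seen. In EBPL exclusion-only reads numbered 30 in siSNRPB2 and 2 in siCtrl, and ψ was 0.38 in siSNRPB2 and 0.82 in siCtrl upstream and 0.59 in siSNRPB2 and 0.92 in siCtrl downstream. In HDLBP, which encodes the RNA-binding protein vigilin, they numbered 16 in siSNRPB2 and 3 in siCtrl, with ψ 0.31 in siSNRPB2 and 0.78 in siCtrl upstream and 0.62 in siSNRPB2 and 0.92 in siCtrl downstream. BCS1L, a chaperone for assembly of respiratory complex III, had no such read in the 2 files, with ψ 0.65 in siSNRPB2 and 0.95 in siCtrl upstream and 0.57 in siSNRPB2 and 0.98 in siCtrl downstream. Its exons are annotated as exclusive, and their ψ values in siCtrl summed to more than 1.

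FBXW11, which encodes an F-box protein that recognises phosphorylated substrates for ubiquitination, had 4 exons between the same flanks, and all 4 were called lower. Along the gene, ψ was 0.12 in siSNRPB2 and 0.30 in siCtrl for the first, 0.62 in siSNRPB2 and 0.94 in siCtrl for the next, then 0.29 in siSNRPB2 and 0.68 in siCtrl, and 0.63 in siSNRPB2 and 0.94 in siCtrl for the last. Exclusion-only reads, which all 4 share, numbered 122 in siSNRPB2 and 21 in siCtrl. The ranking of the 4 exons was nearly kept while each stood lower.

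ANXA2, an annexin that binds calcium and membranes, had 4 exons in a set at the start of the gene, on chromosome 15 between 60390213 and 60397338 (hg38). The first 3 were called lower, with ψ 0.35 in siSNRPB2 and 0.55 in siCtrl, 0.10 in siSNRPB2 and 0.26 in siCtrl, and 0.19 in siSNRPB2 and 0.32 in siCtrl. The last had 0.07 in siSNRPB2 and 0.05 in siCtrl and was not called. Here the exclusion-only reads were alike, 79 in siSNRPB2 and 72 in siCtrl, and inclusion-only reads were fewer in siSNRPB2 for the 3 called exons.

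Further pairs called lower in both exons belong to genes of other functions. In SRSF11, an SR-related splicing protein, ψ was 0.04 in siSNRPB2 and 0.20 in siCtrl upstream and 0.01 in siSNRPB2 and 0.17 in siCtrl downstream, and its inclusion-only reads numbered 16 and 5 in siSNRPB2 against 99 and 86 in siCtrl. In VEGFA, an angiogenic growth factor, ψ was 0.05 in siSNRPB2 and 0.19 in siCtrl upstream and 0.45 in siSNRPB2 and 0.61 in siCtrl downstream. These are the 72-base and 132-base exons at chromosome 6, 43780732 to 43780803 and 43781956 to 43782087 (hg38), in the variable 3′ portion of the gene. In ATXN3, a deubiquitinase, ψ was 0.20 in siSNRPB2 and 0.79 in siCtrl upstream and 0.74 in siSNRPB2 and 0.96 in siCtrl downstream. This downstream ATXN3 exon also lies in a set with other flanks, where it had ψ 0.01 in siSNRPB2 and 0.05 in siCtrl and was not called. Its inclusion-only reads there were 0 in siSNRPB2 and 8 in siCtrl, against 158 and 184 in the pair called lower. The remaining genes with a pair called lower were CANT1, CDADC1, COL8A1, ILDR2, MRPS18C, NIPA2, PCM1, SLC25A17, TMBIM6, TMEM259, TNFAIP2 and UBE2F. The downstream TMBIM6 exon also lies in a set with another upstream flank, with the same inclusion-only reads. There it had ψ 0.07 in siSNRPB2 and 0.11 in siCtrl and was not called. In TMEM259 the 2 exons abut, as in 11 pairs in all, so no intron separates them.

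**Figure D3:**
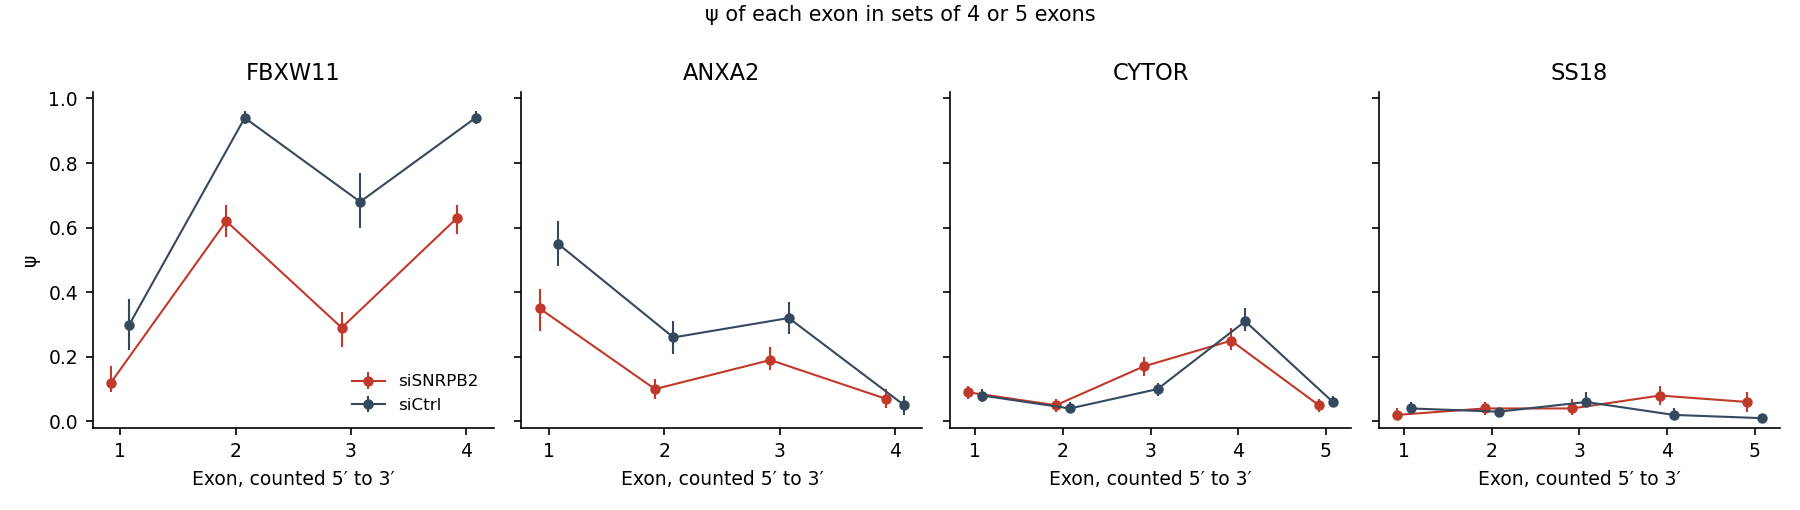
ψ (y axis, 0 to 1) of each exon in sets of 4 or 5 exons, in order along the gene (x axis), for siSNRPB2 (red) and siCtrl (dark blue); bars are the authors' intervals. All 4 FBXW11 exons and the first 3 of ANXA2 stand lower in siSNRPB2, whereas the 5 exons of CYTOR and of SS18 were not called.

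Among pairs with both exons higher in siSNRPB2, TPRA1 had ψ 0.92 in siSNRPB2 and 0.32 in siCtrl upstream and 0.90 in siSNRPB2 and 0.35 in siCtrl downstream. Its exclusion-only reads numbered 0 in siSNRPB2 and 19 in siCtrl. In NUMA1, a spindle pole protein, the upstream exon had ψ 0.82 in siSNRPB2 and 0.38 in siCtrl and the downstream exon 0.84 in siSNRPB2 and 0.08 in siCtrl. Exclusion-only reads of NUMA1 numbered 1 in siSNRPB2 and 25 in siCtrl, the reverse of the picture in EBPL and FBXW11.

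RAB34, a small GTPase of the Golgi and cilium, lacked exclusion-only reads in both files. Its ψ was 0.82 in siSNRPB2 and 0.38 in siCtrl upstream and 0.78 in siSNRPB2 and 0.27 in siCtrl downstream. The inclusion-only reads of the RAB34 exons were 146 and 102 in siSNRPB2 against 145 and 73 in siCtrl, so the upstream exon had nearly the same number in both files.

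The exclusive ATE1 exons printed above were both called higher. The upstream exon had ψ 0.93 in siSNRPB2 and 0.54 in siCtrl and the downstream exon 0.62 in siSNRPB2 and 0.25 in siCtrl, with inclusion-only reads of 115 and 58 in siSNRPB2 against 109 and 51 in siCtrl. No exclusion-only read was seen. The upstream exon's share of the inclusion-only reads was 66.5% in siSNRPB2 and 68.1% in siCtrl. For this pair the balance between the 2 alternatives therefore differed little while both ψ values stood higher, and the inclusion-only reads were only slightly more numerous in siSNRPB2. The ATE1 values in siSNRPB2 summed to more than 1, which strict exclusion does not allow, so their level is uncertain. The same was seen in other exclusive pairs, among them COL13A1 and NUMA1 in siSNRPB2 and NRG1 in siCtrl.

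The long non-coding RNA LINC00941 had ψ 0.52 in siSNRPB2 and 0.19 in siCtrl upstream and 0.98 in siSNRPB2 and 0.68 in siCtrl downstream. IQCE, a protein of the cilium, had 0.88 in siSNRPB2 and 0.51 in siCtrl upstream and 0.85 in siSNRPB2 and 0.56 in siCtrl downstream. CABYR, a calcium-binding protein known from sperm, had 0.38 in siSNRPB2 and 0.01 in siCtrl upstream and 0.26 in siSNRPB2 and 0.03 in siCtrl downstream. The CABYR exons had 30 and 14 inclusion-only reads in siSNRPB2, whereas siCtrl had 0 and 2, so both were hardly used in siCtrl. CARD8, an inflammasome sensor, had 0.57 in siSNRPB2 and 0.24 in siCtrl upstream and 0.25 in siSNRPB2 and 0.03 in siCtrl downstream. The other genes with a pair called higher were AGK, CCDC57, COL13A1, FAM49B, MBD1, PVT1, TWF1, USP8, ZNF544 and ZNF654.

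**Figure D4:**
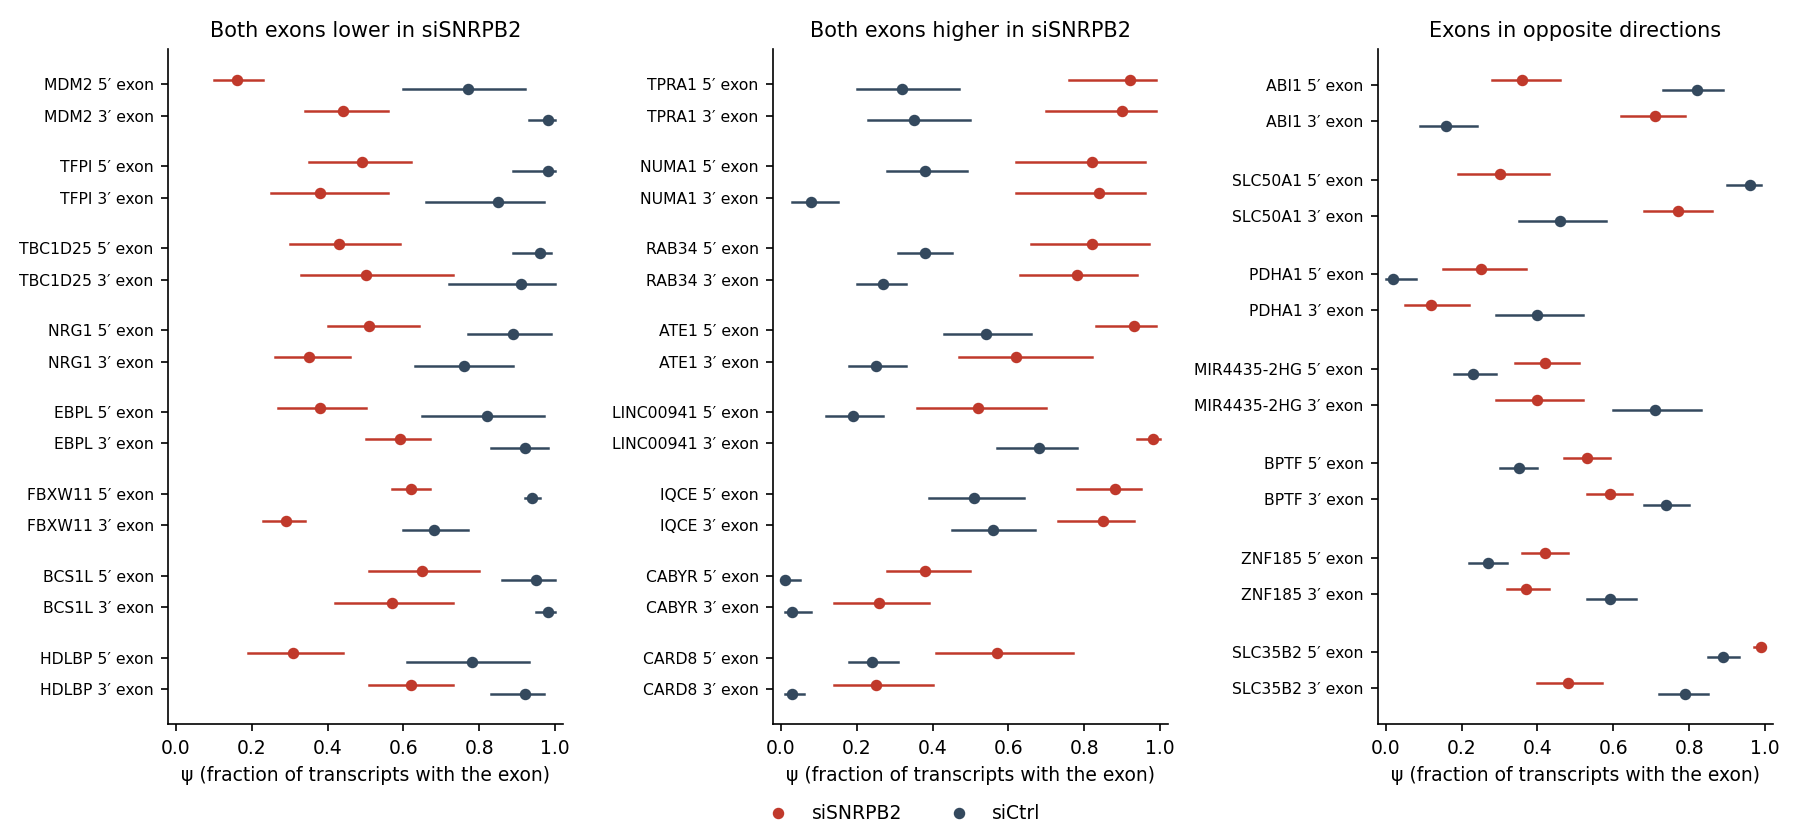
ψ (x axis, fraction of transcripts with the exon) of the upstream (5′) and downstream (3′) exon of the leading pairs, siSNRPB2 in red above siCtrl in dark blue, with the authors' intervals as bars. In MDM2 both exons are lower in siSNRPB2 (0.16 against 0.77 and 0.44 against 0.98), in TPRA1 both are higher, and in ABI1 the exons cross over.

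Among pairs called in opposite directions, ABI1 showed an exchange of one exon for the other. In the set with the farther upstream flank, the upstream exon of 174 bases had ψ 0.36 in siSNRPB2 and 0.82 in siCtrl, and the downstream exon of 87 bases 0.71 in siSNRPB2 and 0.16 in siCtrl. Inclusion-only reads were 60 upstream and 119 downstream in siSNRPB2, and 231 and 16 in siCtrl. The upstream exon thus took 33.5% of them in siSNRPB2 and 93.5% in siCtrl. A second set with another upstream flank holds the same exons and repeats the pattern, with ψ 0.61 in siSNRPB2 and 0.94 in siCtrl upstream and 0.98 in siSNRPB2 and 0.21 in siCtrl downstream. Both sets draw on the same downstream reads, so they are not separate evidence.

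SLC50A1 showed the same kind of exchange. Its upstream exon had ψ 0.30 in siSNRPB2 and 0.96 in siCtrl and its downstream exon 0.77 in siSNRPB2 and 0.46 in siCtrl, with inclusion-only reads of 23 and 134 in siSNRPB2 against 179 and 72 in siCtrl. The upstream exon took 14.6% of these reads in siSNRPB2 and 71.3% in siCtrl.

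In BPTF and ZNF185 the exchange ran the other way. The upstream BPTF exon had ψ 0.53 in siSNRPB2 and 0.35 in siCtrl and the downstream exon 0.59 in siSNRPB2 and 0.74 in siCtrl, with inclusion-only reads of 309 and 349 in siSNRPB2 against 257 and 615 in siCtrl. The upstream ZNF185 exon had 0.42 in siSNRPB2 and 0.27 in siCtrl and the downstream exon 0.37 in siSNRPB2 and 0.59 in siCtrl, with inclusion-only reads of 203 and 171 in siSNRPB2 against 113 and 271 in siCtrl. In both genes the upstream exon had more reads and the downstream exon fewer in siSNRPB2. Exclusion-only reads numbered 21 in siSNRPB2 and 27 in siCtrl in BPTF, and 42 in siSNRPB2 and 31 in siCtrl in ZNF185.

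In SLC35B2, which carries the sulfate donor into the Golgi, ψ was 0.99 in siSNRPB2 and 0.89 in siCtrl upstream and 0.48 in siSNRPB2 and 0.79 in siCtrl downstream. PDHA1, a subunit of pyruvate dehydrogenase, had 0.25 in siSNRPB2 and 0.02 in siCtrl upstream and 0.12 in siSNRPB2 and 0.40 in siCtrl downstream. PDHA1 was the exclusive pair among the opposite calls, with 15 and 6 inclusion-only reads in siSNRPB2, whereas siCtrl had 0 and 34. The long non-coding RNA MIR4435-2HG had 0.42 in siSNRPB2 and 0.23 in siCtrl upstream and 0.40 in siSNRPB2 and 0.71 in siCtrl downstream. Pairs of WDR47, a microtubule-associated protein, and of the non-coding RNA MUC20-OT1 were also called in opposite directions, each with fewer than 20 informative reads for an exon in a file.

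The choice between the exons of a pair was also measured without the shared junction, from inclusion-only reads alone. The measure was the log2 of the odds ratio of upstream over downstream reads, siSNRPB2 over siCtrl, with 0.5 added to each number, so that a positive value means relatively more upstream exon in siSNRPB2. Its exact 95% interval was taken on reads divided by a noise factor and rounded to whole reads. The factor, 9.94, is that by which read numbers of near-constant exons varied between the files beyond counting error. Where reads are few, the rounding makes the interval coarse, and intervals that only just leave out 0 can hang on it. The interval compares 2 files and covers no spread between cultures. It left out 0 in 24 of 1304 pairs (1.84%) in 22 genes, 12 toward each exon, against 2.62% of the pairs without shared flanks. Of these shifted pairs, 20 are found together in GENCODE transcripts (3.16% of such pairs) and 2 are exclusive (0.416%).

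**Figure D5:**
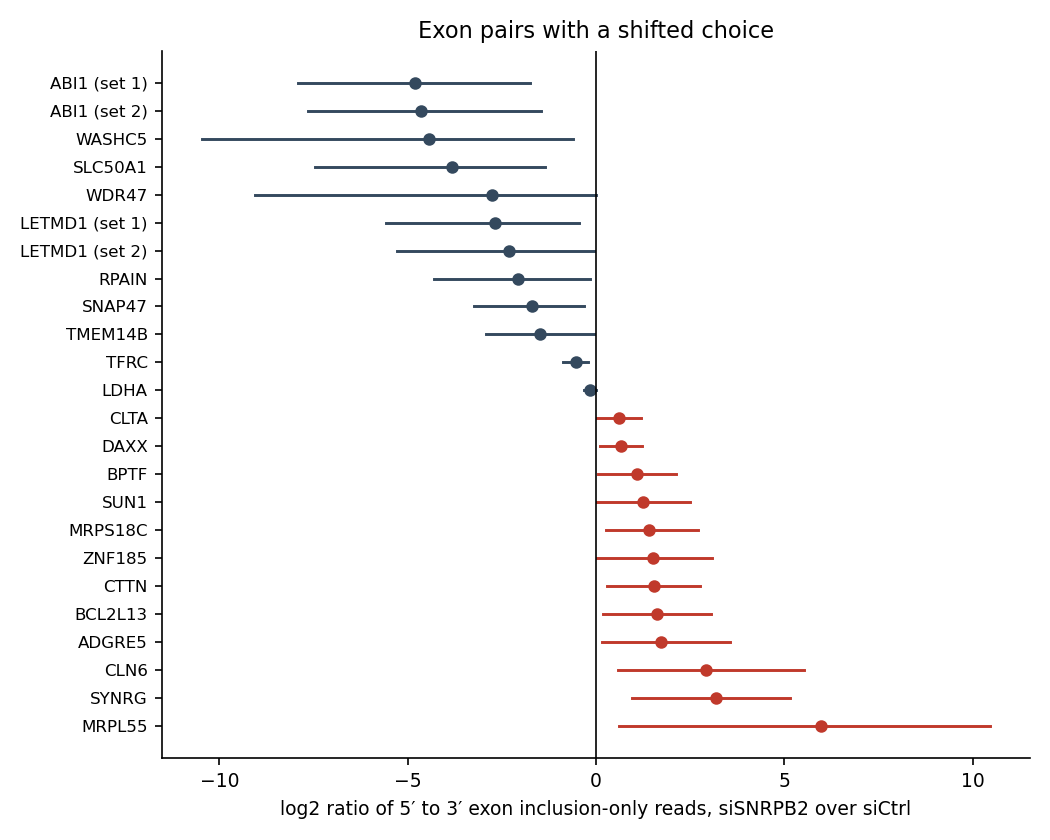
Log2 odds ratio of upstream (5′) over downstream (3′) inclusion-only reads, siSNRPB2 over siCtrl, for the 24 pairs whose 95% interval (bars) leaves out 0. Pairs left of 0 had relatively more downstream reads in siSNRPB2 (ABI1 at −4.79), those right of 0 relatively more upstream reads (MRPL55 at 5.97).

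Toward the downstream exon, the ratio was −4.79 (95% interval −7.91 to −1.76) in the first ABI1 set and −3.82 (−7.45 to −1.34) in SLC50A1. In WASHC5, a subunit of the endosomal WASH complex, it was −4.42 (−10.46 to −0.62), from inclusion-only reads of 10 and 79 in siSNRPB2 against 69 and 24 in siCtrl. RPAIN, which imports replication protein A into the nucleus, had −2.07 (−4.30 to −0.17), with reads of 52 and 152 in siSNRPB2 against 180 and 124 in siCtrl. In all 4 genes the exon with most reads changed between the files. LETMD1, a protein of the inner mitochondrial membrane, had −2.67 (−5.59 to −0.46) in one set and −2.32 (−5.28 to −0.06) in another that holds the same exons.

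Toward the upstream exon, MRPL55, of the mitochondrial ribosome, had 5.97 (0.62 to 10.46), from inclusion-only reads of 66 and 15 in siSNRPB2 against 5 and 80 in siCtrl. SYNRG, a partner of the clathrin adaptor AP-1, had 3.20 (0.96 to 5.15), with reads of 152 and 86 in siSNRPB2 against 45 and 236 in siCtrl. Its upstream exon had ψ 0.96 in siSNRPB2 and 0.28 in siCtrl and its downstream exon 0.92 in siSNRPB2 and 0.84 in siCtrl. In MRPL55 and SYNRG alike the upstream exon was called higher and the downstream exon was not called.

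CLN6, a membrane protein of the endoplasmic reticulum, had a ratio of 2.93 (0.60 to 5.53), with reads of 113 and 126 in siSNRPB2 against 30 and 258 in siCtrl, and neither exon was called. BCL2L13, a mitochondrial receptor for mitophagy, had 1.62 (0.18 to 3.06), with reads of 227 and 220 in siSNRPB2 against 107 and 320 in siCtrl. ADGRE5, the adhesion receptor CD97, had 1.72 (0.17 to 3.56), with reads of 267 and 62 in siSNRPB2 against 300 and 230 in siCtrl, and with the noise factor of exons of like depth its interval included 0 (−0.07 to 3.39). In ADGRE5 the upstream exon kept most reads in both groups and the downstream exon was the one with far fewer reads in siSNRPB2.

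CTTN, which encodes cortactin, a promoter of actin branching, rested on the most reads of the named shifts. Its ratio was 1.54 (0.29 to 2.75), with inclusion-only reads of 2847 and 85 in siSNRPB2 against 3126 and 272 in siCtrl. The ψ of the upstream exon was 0.56 in siSNRPB2 and 0.57 in siCtrl and that of the downstream exon 0.03 in siSNRPB2 and 0.08 in siCtrl, a difference under the size needed for a call. MRPS18C, of the mitochondrial ribosome, had a ratio of 1.42 (0.27 to 2.71) although both exons were called lower. Its inclusion-only reads were 215 and 625 in siSNRPB2, while siCtrl had 121 and 942, so the upstream exon had more reads and the downstream exon fewer in siSNRPB2. The ratios of BPTF, 1.08 (0.04 to 2.12), and ZNF185, 1.51 (0.01 to 3.07), only just left out 0.

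Among all 24 shifted pairs 6 were called in opposite directions, 1 jointly, 12 in 1 exon and 5 in none. The last include LDHA, with a ratio of −0.17, and TFRC, with −0.54, where ψ was 0.99 or 1.00 for both exons in both groups. In LDHA and TFRC the read numbers differed without a visible choice of one exon over the other. The exon with the higher ψ changed between groups in 203 pairs, but in 6 pairs by gaps of at least 0.2 in both groups: both ABI1 sets, SLC50A1, ATG13, PRKCD and SNCAIP. In ATG13, an autophagy initiation factor, ψ was 0.28 in siSNRPB2 and 0.96 in siCtrl upstream and 0.54 in siSNRPB2 and 0.65 in siCtrl downstream. In PRKCD, a protein kinase C, it was 0.07 in siSNRPB2 and 0.73 in siCtrl upstream and 0.41 in siSNRPB2 and 0.50 in siCtrl downstream. In SNCAIP, which binds α-synuclein, the order turned the other way, with 0.92 in siSNRPB2 and 0.48 in siCtrl upstream and 0.48 in siSNRPB2 and 0.86 in siCtrl downstream. The choice ratios of ATG13, PRKCD and SNCAIP had intervals that included 0.

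Sets with 3 or more exons numbered 115, with 374 exons. No exon was called in 82 of them, calls in 1 direction only were made in 32, of which 8 had 2 or more called exons, and ABI1 was the set with calls in both directions. The set with the most exons was in GSN, which encodes the actin-severing protein gelsolin. Its 6 exons had ψ of 0.01 to 0.09 in siSNRPB2 and 0.01 to 0.13 in siCtrl, and none was called. The 5-exon sets of RBM23, SS18, CYTOR and FAM49B likewise held no called exon, and their highest ψ was that of an exon of the long non-coding RNA CYTOR, 0.25 in siSNRPB2 and 0.31 in siCtrl.

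Genes were also grouped by function. Over all exons, 7.72% were called lower and 7.49% higher. Splicing and RNA-binding genes had 38 exons in 12 genes, with 5 (13.2%) lower and 3 (7.89%) higher. Cytoskeleton and adhesion genes had 37 exons in 12 genes, with 3 (8.11%) lower and 1 higher, and kinase and signalling genes had 36 exons in 13 genes, with 6 (16.7%) lower and 3 (8.33%) higher. Chromatin and transcription genes had 28 exons in 12 genes, with 2 (7.14%) lower and 4 (14.3%) higher, and trafficking genes had 21 exons in 6 genes, with 4 (19.0%) lower and 2 (9.52%) higher. Mitosis and DNA repair genes had 22 exons in 8 genes, with 5 (22.7%) lower and 4 (18.2%) higher, where 1 called exon of OGG1 counts in 2 sets. The median ψ difference was 0 in each list except kinases (−0.005) and mitosis and DNA repair (−0.065), against 0 over all exons. The lists hold few exons, and no list was tested.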

How the data were processed

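Total RNA was sequenced from 4 libraries, 2 per group, with a stranded kit per the labels. The submitters' processing notes name STAR 2.7 and the build hg38. Per the file headers, the authors deposited MISO estimates for skipped exons: ψ as a fraction with an interval, read counts by compatibility class, and a comparison with the ψ difference (a signed score) and the Bayes factor, a ratio of evidence. Not given in the sources used here are the MISO version, its annotation, the interval's level and whether libraries were merged. With 1 value per group there are no replicates and no p-values.

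From these files, events with at least 10 inclusion-only plus exclusion-only reads in each file were grouped by shared flanks. Of overlapping exons in a set, the event with the most such reads was kept (367 events were not used). Pairs without shared flanks were neighbouring, non-overlapping exons of 1 gene, over all genes and at the same read minimum. As noise factor served the chi-square of inclusion-only and both-isoform reads between the files, its median divided by the value expected from counting, in 4582 exons without exclusion-only reads whose ψ reached 0.95 in each group. Reads were divided by it and rounded to whole reads for exact conditional intervals, which cover no replicate error. The interval step was also run on simulated reads, either independent or copied as often as the noise factor. Dividing by the factor undoes such copying, so the simulation cannot tell how the intervals perform under real noise between files. Exons were matched to GENCODE 29; identity is matches in a global alignment over the longer exon's length.

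The members and lists were chosen with earlier results of these data known. Named were the listed exclusive or tandem genes, the 8 pairs per class with the largest smaller ψ difference (20 reads or more), the 8 largest shifts per direction and the 5 largest sets. RAB6A, IFI16, ANXA2, SRSF11, VEGFA, ATXN3, ATG13, PRKCD, SNCAIP, LDHA, TFRC and the genes under other observations were chosen after their values were seen. Alternatives changed the read minimum, the thresholds, the event kept, the spacing, the ψ estimate and the noise factor. Splice site and branch point sequences were not analysed here. The tools were Biopython 1.88, matplotlib 3.10.9, scipy 1.17.1, pandas 2.3.3, numpy 2.4.6 and Python 3.11.15.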

Additional observations from a re-analysis of the deposited data

Results flagged for a closer look

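Reads outside the main measurement were frequent at exons that share both flanks. Of all reads assigned to these exons, 62.6% in siSNRPB2 and 60.7% in siCtrl fitted neither the isoform with the exon nor the one without it. Over all exons the shares were 53.3% in siSNRPB2 and 51.4% in siCtrl. These reads enter no comparison above, and what transcripts they come from was not tested.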

How the results depend on the processing

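The 4 counts (391 exons called, 45 pairs called jointly, 10 oppositely and 24 with a shifted choice) were recomputed under 12 settings, giving 37 values, of which 24 stayed within 1.5 times. With at least 50 informative reads they were 135, 18, 4 and 15. With at least 1 exclusion-only read in each file they were 197, 27, 4 and 9, and both settings leave fewer exons and pairs. With a ψ difference of at least 0.2, joint calls were 28 and opposite calls 5. Opposite calls were 5 where the Bayes factor had to reach 100, and 4 with the share of inclusion-only reads in place of ψ. With reads as deposited, not divided by the noise factor, 497 pairs had a shifted choice, since the intervals then cover counting error alone. Of 16 named shifts, 2 had intervals that included 0 with the noise factor of their depth quintile: ADGRE5 (−0.07 to 3.39) and WDR47 (−5.92 to 0.44). No paired analysis was possible because the files hold 1 value per group. The shallowest exon and file had a median of 32.5 informative reads in pairs called oppositely, 44 in those called jointly lower, 34.5 in those called jointly higher, 30 with 1 call and 48 with none. How far any difference exceeds the spread between cultures was not analysed here.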

Other observations

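Pairs in which 1 exon alone was called included regulators of splicing and of the cell cycle. In MBNL1, which encodes a splicing regulator, the upstream exon of 36 bases had ψ 0.98 in siSNRPB2 and 0.68 in siCtrl beside a downstream exon at 1.00 in each group. The paralogous 36-base exon of MBNL2 had 0.33 in siSNRPB2 and 0.06 in siCtrl beside a downstream exon at 0.91 in siSNRPB2 and 0.93 in siCtrl. Both paralogues thus had the upstream exon called higher and the downstream exon of 95 bases not called. In TIA1, an RNA-binding protein, the downstream exon had 0.60 in siSNRPB2 and 0.21 in siCtrl and was called higher, and the upstream exon had 0.51 in siSNRPB2 and 0.69 in siCtrl and was not called.

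In AURKA, a mitotic kinase, the downstream exon had ψ 0.35 in siSNRPB2 and 0.01 in siCtrl, with 24 inclusion-only reads in siSNRPB2 and 0 in siCtrl. In OGG1, which repairs oxidised guanine, the downstream exon had 0.30 in siSNRPB2 and 0.85 in siCtrl. MARK2 and MARK3, paralogous kinases of microtubule-associated proteins, each have an upstream exon of 27 bases beside a downstream exon of 45 bases. The upstream exon was called lower in both, with 0.05 in siSNRPB2 and 0.32 in siCtrl in MARK2 and 0.14 in siSNRPB2 and 0.46 in siCtrl in MARK3. Inclusion-only reads of the MARK2 exon were few, 2 in siSNRPB2 and 9 in siCtrl, against 13 in siSNRPB2 and 55 in siCtrl in MARK3. These genes were picked after their values were seen, and no difference among them was tested.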
